A study of Medicago sativa with 9 samples.

Results

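Leaf transcripts of alfalfa (Medicago sativa, cultivar Kangsai) were compared between plants sprayed with selenite at 100 mg/L, called low Se, and control plants. The set examined was every predicted long non-coding RNA (lncRNA) that averaged 0.5 FPKM or more across the 3 low Se and 3 control libraries, which left 42661 of the 64684 transcripts listed. FPKM counts fragments relative to the length of the transcript and the size of the library, and values deposited as 0.0001 were read as 0. The transcript just inside the limit, MSTRG.70601.1, had 3.00 FPKM in low Se 2 and 0 elsewhere, and the one just outside, MSTRG.34701.1, had 3.00 FPKM in control 2 and 0 elsewhere.

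All plants were grown in a field, and sprays were given at intervals of 7 days, 3 in all, starting when plants stood 20 cm tall. The labels do not name the spray that control plants received, and the design text speaks of 3 selenite concentrations, so the control may or may not be a dose of 0. A further 3 libraries, from plants sprayed at 500 mg/L (high Se), entered the estimate of the spread and are cited for single transcripts. Whether libraries of a group stand for different plants is not stated. The p-values therefore rest on the spread among these samples, which may be technical. Because the table lists predicted lncRNAs alone, the leaf label could not be checked against protein-coding markers. Fewer cells of a type and less RNA per cell cannot be told apart in such bulk samples.

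Selenite enters plant cells largely through phosphate transporters, is reduced to selenide and is built into selenocysteine and selenomethionine by enzymes of sulfur assimilation. In excess it disturbs thiol balance and provokes oxidative stress, while small amounts are known to raise antioxidant capacity in leaves. LncRNAs of plants can act in cis on a neighbouring or overlapping gene, as antisense transcripts do at the flowering repressor FLC of Arabidopsis, or in trans as decoys for microRNAs, as IPS1 does for miR399 under phosphate starvation in the same species. The deposited class codes were read in their usual sense for assembled transcripts: u for intergenic, i for lying within an intron of a host gene, j for sharing a splice junction with it, o for sense overlap with its exons and x for antisense overlap. Of the members, 67.1% were intergenic, 23.3% intronic, 4.56% junction-sharing, 2.96% sense-overlapping and 2.17% antisense. The median member was 345 bases long, 76.6% of members were unspliced and 66.1% were strandless. The functions of the host genes are not given here.

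Depth and breadth of the libraries overlapped between the groups. Aligned sequence, estimated from the ratio of coverage to FPKM, was 1.68, 2.65 and 2.11 gigabases in low Se 1 to 3 and 2.55, 1.44 and 2.78 in control 1 to 3. The members listed above 0 numbered 26484, 28007 and 24409 in low Se and 28456, 25735 and 22994 in control. The deepest library, control 3, thus listed the fewest. The means of 26300 ± 1806 in low Se and 25728 ± 2731 in control (SD, n = 3 each) did not differ beyond the spread (exact permutation test, two-sided, p = 0.8; the smallest p that 3 against 3 allows is 0.1), and without low Se 2 or control 3 the difference turned to -677 and -635. Few reads stood behind a typical member: its median was 2.60 to 6.91 estimated reads in the low Se libraries and 2.33 to 7.33 in the control libraries.

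**Figure D1:**
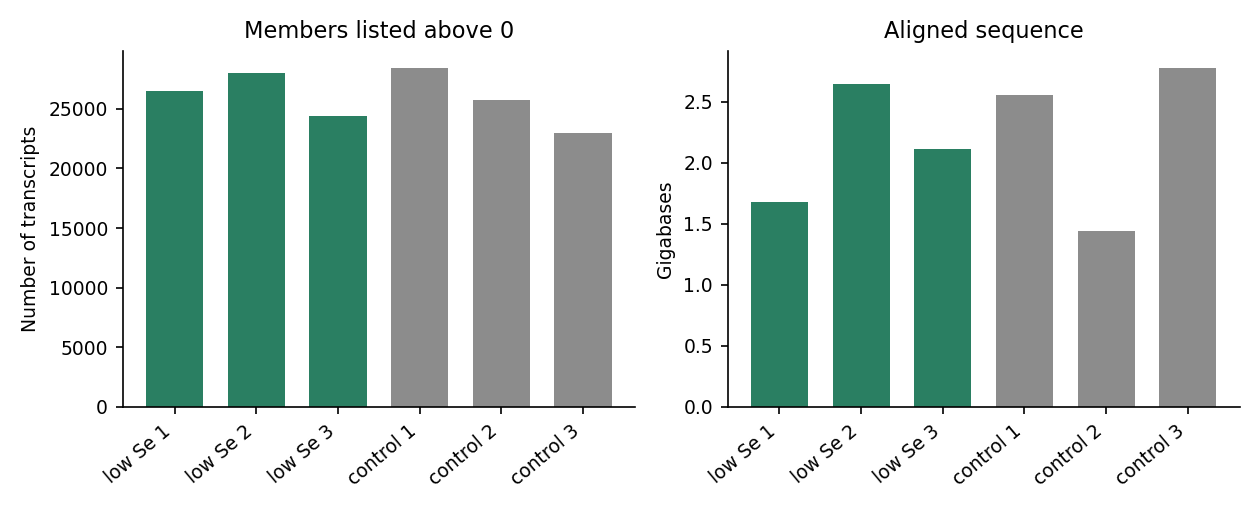
Members listed above 0 (left, number of transcripts) and aligned sequence (right, gigabases) in each low Se (green) and control (grey) library; each bar is 1 library. The groups overlap in both, and control 3 has 2.78 gigabases but only 22994 members above 0.

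Across the members, pairs of libraries resembled each other little. The members were chosen by their mean over the same 6 libraries, which lets in transcripts high in 1 library alone and can lower the correlation. Across members, which are not independent, Pearson's r of log2(FPKM + 0.1) was 0.207 to 0.404 for the 6 pairs within a group and 0.177 to 0.241 for the 9 pairs between groups. Low Se 2 and 3 formed the closest pair, at 0.404, followed by control 2 and 3 at 0.352. Low Se 1 and control 1 stood apart, low Se 1 with r of 0.259 and 0.266 to its own group and control 1 with r of 0.207 and 0.207.

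The first question was which transcripts were listed in one group and not in the other. Of the members, 664 (1.56%) were above 0 in every low Se library and at 0 in every control library, and 560 (1.31%) showed the reverse. These complete switches were the ends of a broad pattern in which 32.0% of members were above 0 in more low Se than control libraries, 29.4% in fewer and 38.6% in as many. Just 8631 members, 20.2%, were above 0 in all 6 libraries, and 4876 (11.4%) were above 0 in only 1. A 0 in this table is a listing, which can also be a failed estimate, so no fold change is given for these transcripts. With a floor in place of 0, set at 1 read length (141 bases) of coverage at the depth of the shallowest library, the counts were 686 and 572.

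**Figure D2:**
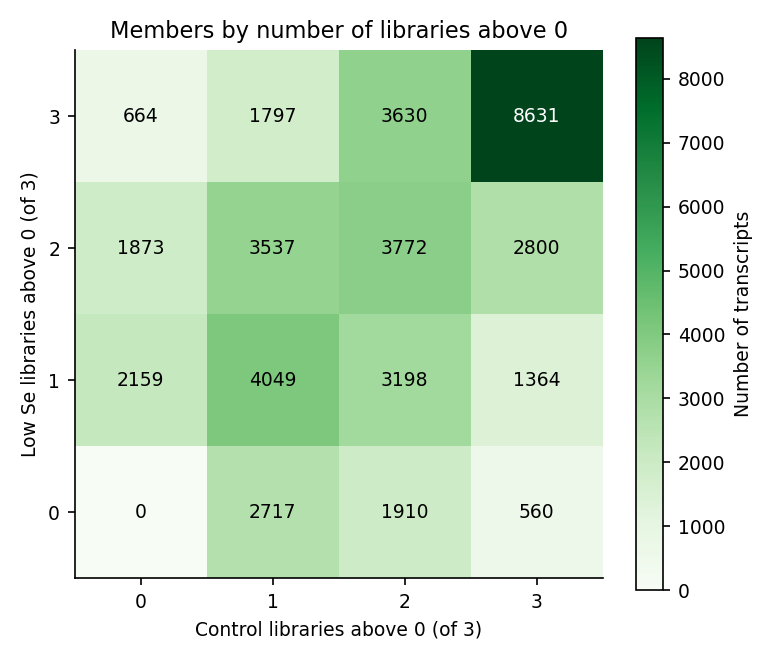
Members by the number of low Se libraries (vertical axis, of 3) and control libraries (horizontal axis, of 3) in which they were above 0; shading and figures give the number of transcripts. The largest cell holds the 8631 members above 0 in all 6 libraries, and the corners hold 664 members seen in low Se alone and 560 seen in control alone.

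Transcripts listed in one group alone were mostly faint. The 664 low-Se-only transcripts had a median group mean of 1.94 FPKM in low Se, about 31.1 estimated reads over the 3 libraries, and 54 of them reached 5 FPKM. The 560 control-only transcripts had a median of 2.18 FPKM and 35.1 estimated reads in control, and 57 reached 5 FPKM. Per library of the group where they were listed, the medians were 10.4 and 11.7 estimated reads, beside 6.91 for all members over the 6 libraries. The filter admits a transcript at 0 in a whole group only where the other group averages at least 1 FPKM. It therefore raises these medians, and the values are no like comparison. Their median lengths, 304 and 307 bases, lay below the 345 bases of all members. A single exon was found in 80.0% of the low-Se-only and 80.9% of the control-only transcripts, and 75% and 76.6% were strandless. At the higher dose, 157 of the 664 (23.6%) were above 0 in every high Se library and 145 (21.8%) in none. Of the 560, 98 (17.5%) were above 0 in every high Se library and 140 (25%) in none. Over all members, which include those above 0 in all 6 libraries, the shares were 39.6% and 19.7%. Both sets were thus listed throughout high Se less often than members at large. On the chromosomes, 51 of 641 placed low-Se-only transcripts (7.96%) and 35 of 533 placed control-only ones (6.57%) had another of their own set within 10 kb. Of all placed members, 54.85% had another member so near, a share that rises with the size of the set.

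The low-Se-only transcripts with the highest minimum were the intergenic MSTRG.69946.1, MSTRG.15485.1, MSTRG.3798.1 and MSTRG.107635.1 and the sense-overlapping MSTRG.46217.1. The last of these, 221 bases in 2 exons on the minus strand of chromosome 3.1 (35736853 to 35760182, host gene MS.gene76173), reached 23.9, 16.3 and 19.7 FPKM in the low Se libraries, was above 0 in 1 high Se library and was at 0 throughout control. It did not pass the test across all members (limma adjusted p = 0.0641). MSTRG.107635.1, of 252 bases in 2 exons (chromosome 6.1, minus strand, 51786631 to 51830798), reached 13.5, 16.8 and 9.15 FPKM in the low Se libraries. MSTRG.3798.1, a single exon of 212 bases on scaffold 42898 (12739 to 12950), had 11.9, 11.2 and 11.0. None of these last 3 transcripts passed (limma adjusted p of 0.0641 to 0.103). The longest low-Se-only transcript was the intergenic MSTRG.68872.1 on chromosome 4.1, 1709 bases in 4 exons, with 6.84, 1.94 and 1.82 FPKM. The one with the most exons, 8, was MSTRG.98746.1, antisense to MS.gene45098 on chromosome 5.3 (24063304 to 24069326), with 1.42, 11.7 and 5.28 FPKM in low Se and a limma adjusted p of 0.0852.

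Among the control-only transcripts, MSTRG.515.1 had by far the highest minimum. It was followed by MSTRG.43365.1, sense-overlapping with MS.gene003279 on chromosome 2.4, which had 0 in each low Se library and 11.9, 9.12 and 15.6 FPKM in control. Next came the intergenic MSTRG.3040.1, 216 bases on scaffold 41154 (7409 to 7624), with 0 in each low Se library and 228, 33.8 and 8.94 FPKM in control. Its control values span a wide range, with control 1 far above the others. The intronic MSTRG.36622.1 of MS.gene029025 on chromosome 2.3 had 7.86, 17.6 and 17.5 FPKM in control. MSTRG.98192.3, an intergenic transcript of 5 exons but only 311 bases on chromosome 5.3 (14525351 to 14526972, plus strand), had 7.69, 11.0 and 7.72. The longest was MSTRG.77411.1, 1836 intergenic bases on chromosome 4.3 (526436 to 528271), with 3.79, 2.26 and 2.80 FPKM in high Se and overlapping values in control, 5.25, 4.06 and 2.88. Apart from MSTRG.515.1, none of these passed (limma adjusted p of 0.0641 to 0.156).

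The second question was which differences passed a test across all members. limma called 13 of 42661 (0.0305%) at an adjusted p below 0.05, of which 6 rose (0.0141%) and 7 fell (0.0164%). All 13 had groups that did not overlap, a property shared by 3981 members (9.33%; 4.92% higher and 4.41% lower in low Se), and 3687 (8.64%) had an unadjusted p below 0.05. The 13 comprised 10 intergenic transcripts, 1 intronic, 1 junction-sharing and 1 antisense. In high Se, whose spread entered the fit, each of the 13 was listed above 0 throughout, beside 39.6% of all members. High Se values both at 0 and well above it add to that spread and make a call less likely. The listing of the 13 is therefore partly fixed by the test.

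The 6 that rose lay on chromosomes 1.2, 4.1, 5.1, 8.2 and 8.4. MSTRG.147373.1, an intergenic exon of 254 bases on chromosome 8.2 (59463173 to 59463426), reached 7.65, 16.6 and 14.4 FPKM in the low Se libraries, 0.454, 6.57 and 12.8 in the high Se libraries and 0 in each control library (limma adjusted p = 0.0302). High Se thus reached from near 0 into the low Se range. The intergenic MSTRG.15485.1, on the minus strand of chromosome 1.2 (73612197 to 73612695), stood at 13.4, 14.7 and 18.6 FPKM in low Se, lower in high Se, at 5.00, 11.1 and 3.23, and at 0 throughout control. MSTRG.69946.1, an exon of 1148 bases on chromosome 4.1 (49415291 to 49416438), had 78.4, 30.7 and 34.0 FPKM in the low Se libraries, 13.01, 9.82 and 0.315 in the high Se libraries and 0 throughout control. About 2319.6 estimated reads stood behind its low Se values. The intronic MSTRG.91813.1 (host gene MS.gene47024, chromosome 5.1, 69642576 to 69642990) stood at 143, 16.0 and 14.6 FPKM in low Se leaves, at 420, 103 and 239 at the higher dose and at 0.373, 0.0871 and 0 in control. Low Se 1 was far above the other 2 low Se libraries for this transcript, and all 3 were above every control library. Low Se exceeded control by 7.29 ± 0.87 (SE) on a log2(FPKM + 0.1) scale, a size that depends on the value added where control is at 0 (limma adjusted p = 0.00208). MSTRG.157031.1, 253 intergenic bases on chromosome 8.4, had 7.01, 30.8 and 28.1 FPKM against 0.828, 0 and 0. MSTRG.15771.1, whose 2 exons share a junction with MS.gene34399 on chromosome 1.2, had 19.4, 19.5 and 10.7 against 0.0918, 1.21 and 0.

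Each of the 7 that fell was listed at 0 in every low Se library. MSTRG.515.1, a single intergenic exon of 1112 bases on scaffold 15132 (67110 to 68221), was at 0 in low Se, at 0.848, 0.149 and 0.102 FPKM in high Se, and at 121, 158 and 284 FPKM in control, about 10447 estimated reads (limma adjusted p = 5.83e-05). The other 6 had at most 15.9 FPKM in any control library. MSTRG.129749.1, 1300 bases on chromosome 7.3 (11490855 to 11492154), had 4.52, 3.85 and 5.87 FPKM in high Se and 13.2, 8.92 and 7.49 in control. On the same chromosome, MSTRG.131912.1 had 31.8, 21.3 and 9.48 FPKM in high Se and less in control, 7.45, 5.62 and 8.19. MSTRG.69891.1 on chromosome 4.1 (48479431 to 48479846), the chromosome of the rising MSTRG.69946.1, had 12.9, 15.9 and 5.14 FPKM in control. The most heavily spliced control-only transcript, MSTRG.100041.2 of 7 exons, had 7.66, 6.28 and 7.19 FPKM in control, a narrow range. The antisense MSTRG.112200.1 (host gene MS.gene05222) had 4.23, 6.42 and 12.8, and MSTRG.4787.1 on scaffold 51888 had 6.73, 3.05 and 8.63.

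**Figure D3:**
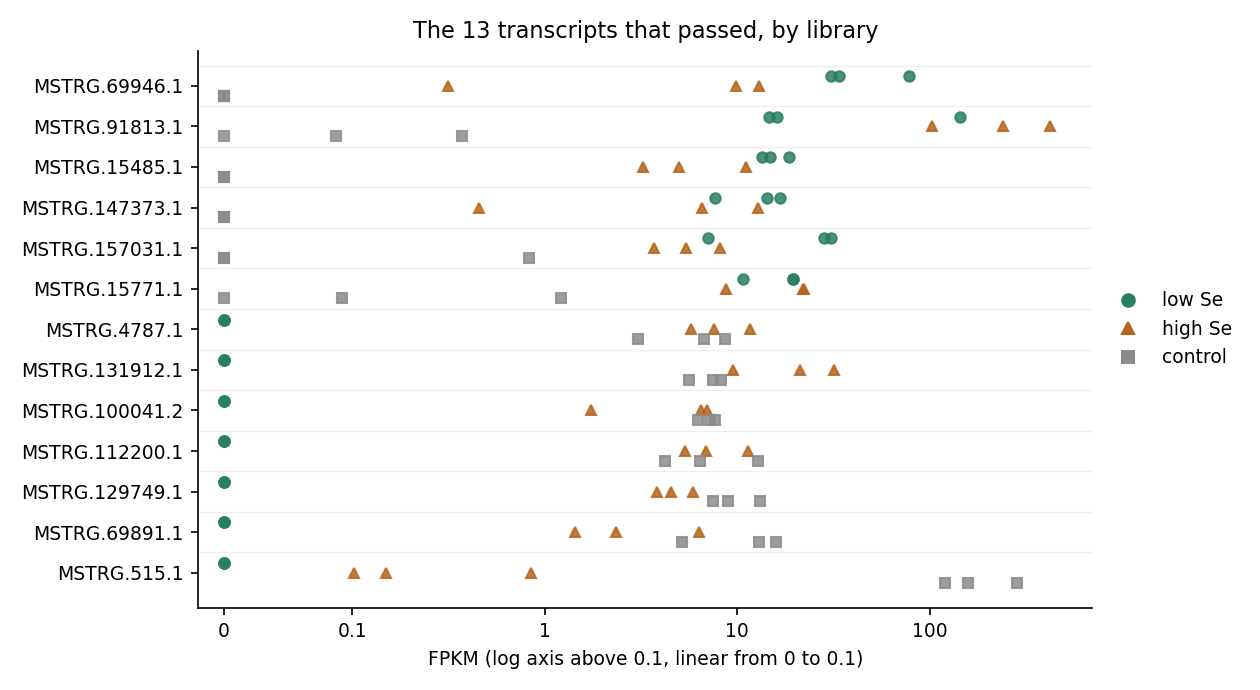
FPKM of the 13 transcripts that passed, in the 3 low Se (circles), 3 high Se (triangles) and 3 control (squares) libraries; each point is 1 library, on a log axis that is linear below 0.1 FPKM. The upper 6 rose and the lower 7 fell, and those 7 sit at 0 in each low Se library.

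The count of 13 moved with single libraries: leaving out low Se 1, 2 or 3 gave 30 (6 rose, 24 fell), 6 or 8, leaving out control 1, 2 or 3 gave 29, 5 or 3, and leaving out high Se 2 or 3 gave 21 or 28. MSTRG.515.1 passed in all 9 fits that left out 1 library, MSTRG.15485.1 in 8, MSTRG.91813.1, MSTRG.129749.1 and MSTRG.131912.1 in 7, and the other 8 in 1 to 5. No sense-overlapping transcript passed, and in some classes none passed in one direction. The lower junction-sharing transcript with the smallest p, MSTRG.10145.1 (MS.gene006292, chromosome 1.1), had 0 in each low Se library and 4.79, 4.80 and 4.90 FPKM in control (limma adjusted p = 0.056). The intronic MSTRG.156684.1 of MS.gene65033 on chromosome 8.4 had 0, 0 and 0.213 FPKM in low Se and 11.0, 7.96 and 9.11 in control, at a limma adjusted p of 0.0906.

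The third question concerned levels where nothing was at 0. Among the 8631 members above 0 in all 6 libraries, 512 (5.93%) were higher and 515 (5.97%) lower in low Se without overlap, together 11.9%. For a single transcript without ties, such a separation has an exact permutation p of 0.1, the smallest that 3 against 3 allows. The share over all members was 9.33%, but ties at 0 can prevent separation there, so it is no like comparison. limma called 0 of the 8631, and 331 of them had an unadjusted p below 0.05. The 512 and 515 transcripts without overlap had median lengths of 646.5 and 600 bases, beside 559 bases over all 8631. Their medians were 40.2 and 39.1 estimated reads per library of the group where they were higher, and that of the 8631 was 24.1 per library. The former come from the group picked as higher and the latter from all 6 libraries, so they are no like comparison.

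The widest gap on the higher side was in MSTRG.152446.1, a 2-exon transcript in sense overlap with MS.gene88410 on chromosome 8.3. It had 1.89, 14.4 and 13.6 FPKM in low Se and 0.0521, 0.0463 and 0.0239 in control, so the lowest low Se value was 36.3 times the highest control value. Next came the intronic MSTRG.85234.1 of MS.gene96598, with 2.93, 1.37 and 5.04 FPKM against 0.0535, 0.174 and 0.156, a ratio of 7.86 between the nearest values. The intergenic MSTRG.157543.1 on chromosome 8.4 (64019700 to 64020809) had 7.64, 10.4 and 10.1 FPKM against 0.356, 0.973 and 0.891. MSTRG.118798.1 on chromosome 6.4 had 2.28, 3.46 and 3.83 against 0.312, 0.372 and 0.256, and MSTRG.114408.1 on chromosome 6.3 had 15.5, 11.8 and 7.81 against 1.14, 0.515 and 1.35. The longest transcript on this side, the intergenic MSTRG.152154.1 of 3261 bases on chromosome 8.3, had 1.96, 3.29 and 2.21 FPKM against 0.454, 0.134 and 0.239. None of these passed (limma adjusted p of 0.104 to 0.54).

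On the lower side the widest gap was in MSTRG.2192.1, an intergenic exon on scaffold 39840 (23732 to 24030). Its levels were 2.97, 1.29 and 3.19 FPKM in low Se leaves, 2.78, 168 and 63.1 at the higher dose and 254, 426 and 27.5 in control, with a limma adjusted p of 0.0657 for low Se against control. The lowest control value was 8.62 times the highest low Se value, and high Se spread across both ranges. MSTRG.84613.1 on chromosome 4.4 (24433930 to 24434907) had 0.686, 0.243 and 0.0158 FPKM against 5.37, 6.32 and 5.88 in control. MSTRG.131648.1 on chromosome 7.3 had 0.0787, 1.499 and 1.27 against 10.5, 13.6 and 13.2. In both the control libraries were close together and the low Se libraries were not. MSTRG.44655.1 on chromosome 3.1 had 0.109, 0.155 and 0.219 FPKM against 2.58, 1.64 and 1.52. MSTRG.75777.1 on chromosome 4.2 had 0.954, 0.838 and 0.359 against 6.42, 7.17 and 8.57. The longest, MSTRG.11201.1 with 5423 bases in 2 exons on chromosome 1.2, had 5.85, 7.25 and 4.03 FPKM against 10.5, 13.2 and 17.0. It had about 1444 estimated reads in low Se, 3580.5 in control and a change of -1.25 ± 0.71 on the log2(FPKM + 0.1) scale (limma adjusted p = 0.574). None of these 6 passed.

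By class, detection switches were most frequent among intergenic transcripts, of which 1.65% were low-Se-only and 1.42% control-only, and least frequent among junction-sharing ones, with 0.924% and 0.873%. Sense-overlapping transcripts had 1.43% and 0.952%, intronic ones 1.46% and 1.15%, and antisense ones 1.19% on either side. The median log2 change was 0.17 for sense-overlapping transcripts, 0.09 for intronic ones, 0.02 for antisense ones, 0.00 for junction-sharing ones and -0.03 for intergenic ones, beside 0.01 over all members. The share of members above 0 per library averaged 73.5% in low Se and 69.5% in control for sense-overlapping transcripts, 69.8% and 68.5% for antisense ones, 65.9% and 65.3% for junction-sharing ones, 64.7% and 62.1% for intronic ones and 59.5% and 58.7% for intergenic ones. Relative to the median of all members, the sense-overlapping and intronic medians lay above 0 (at least 0.0479 and 0.0058) and the intergenic one below 0 (at most -0.0004) in the 13 other settings that could move them. The intronic and intergenic values nearest 0, 0.0058 and -0.0004, were those without control 3, and the sense-overlapping one, 0.0479, that without control 1.

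Detection varied with length. Among members under 300 bases, 8.46% were above 0 in all 6 libraries, against 57.2% of those of 1000 bases and over. Low-Se-only and control-only transcripts made up 1.90% and 1.54% of the shortest group and 0.706% and 0.449% of the longest. Of the always-listed transcripts under 300 bases, 3.76% were higher and 6.62% lower in low Se without overlap, beside 5.93% and 5.97% over all always-listed members. The shares were 5.45% and 4.76% from 300 to under 500 bases, 6.64% and 5.71% from 500 to under 1000 bases, and 7.07% and 7.46% at 1000 bases and over. Members under 300 bases had a median log2 change of -0.10. Set against that of all members, it was -0.12, and it moved to -0.23 without low Se 1 and to -0.02 without control 3. By exons, 7.35% of the 558 always-listed transcripts of 3 or more exons were higher and 4.84% lower, 5.11% and 6.44% of the 1956 with 2 exons, and 6.07% and 5.92% of the 6117 with a single exon. Strandless transcripts switched more often (1.76% low-Se-only and 1.52% control-only) than plus (1.11% and 1.05%) or minus ones (1.19% and 0.754%), and fewer of them were always listed, 13.1% against 34.5% and 33.7%.

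**Figure D4:**
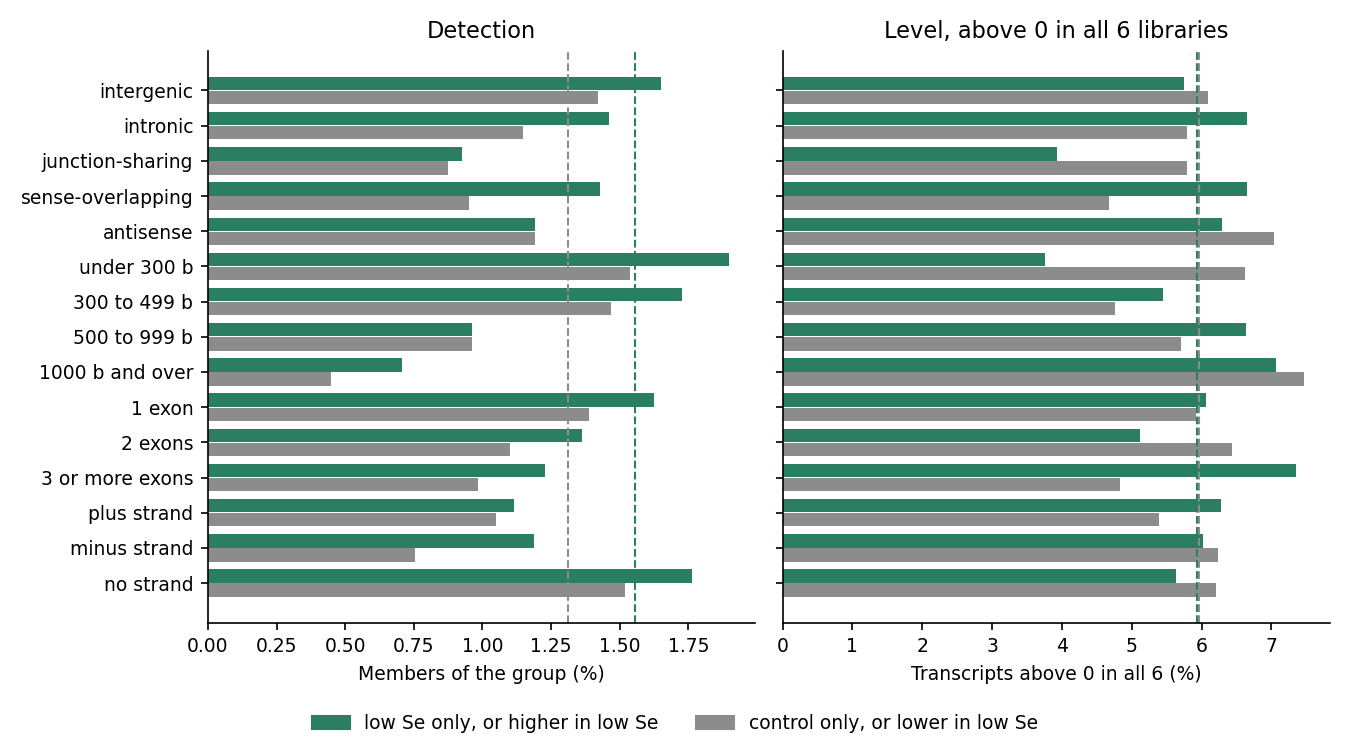
Share of each transcript group listed in low Se alone or in control alone (left, % of members) and higher or lower in low Se without overlap (right, % of the transcripts above 0 in all 6 libraries); green bars are the low Se side, grey bars the control side, and dashed lines the shares over all members. Switches in detection are least frequent at 1000 bases and over (0.706% and 0.449%).

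Summed FPKM per class did not differ beyond the spread between libraries after adjustment. Intergenic transcripts held 36.2%, 41.7% and 37.0% of it in low Se and 37.7%, 45.5% and 47.3% in control. Sense-overlapping transcripts held 29.8%, 18.3% and 20.2% in low Se and 18.2%, 17.8% and 17.3% in control. The groups did not overlap for this class, and the exact permutation test gave p = 0.1, the smallest possible, and 0.5 after adjustment over the 5 classes. Low Se 1 carried most of the difference: it was 5.01 percentage points over all libraries and 1.51 without low Se 1. In that library MSTRG.105347.1, a 294-base transcript overlapping MS.gene038185 on chromosome 5.4 (70386291 to 70392203, minus strand), reached 21316 FPKM, against 783 to 2366 FPKM in each of the other 8 libraries. The second form of the locus, MSTRG.105347.2, had 18291 FPKM in low Se 1, was listed at 0 in low Se 2 and 3, and had 0, 739 and 1820 in control. These forms were singled out after their values were seen. Adjusted p for the other 4 classes was 0.5 to 1.

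The most abundant members showed no difference that passed. MSTRG.91972.1, antisense to MS.gene038092 on chromosome 5.1, had 59905, 78303 and 93638 FPKM in low Se and 88049, 68486 and 73124 in control. Its companion form MSTRG.91972.2 had 29919, 22313 and 23941 in low Se, a narrow range, and 56538, 10413 and 8049 in control. Both forms span 71793729 to 71794712, and how reads were divided between them is not stated. MSTRG.100870.1 on chromosome 5.3 had 34250, 38393 and 40662 in low Se and 46571, 25986 and 18949 in control. The intergenic MSTRG.105411.1 on chromosome 5.4 had 17716, 24658 and 23382 FPKM in low Se and 15113, 14802 and 18833 in control, and MSTRG.10241.1 on chromosome 1.1 had 8263, 7082 and 4660 against 12082, 4182 and 8981. In each of the 5 the groups overlapped (limma adjusted p of 0.706 to 0.999). For MSTRG.91972.1, with a log2 change of 0.00 ± 0.50, the sign depended on the scaling. Of these 5, the 4 on chromosome 5 homologues lay near one another in coordinate, at 71793729 on 5.1, 71944179 on 5.3 and 71329312 on 5.4.

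Along the genome, members were spread over the 32 named chromosomes, 8 numbers with 4 homologues each, with 891 to 1519 members apiece. Low-Se-only transcripts ranged from 0.774% of members on chromosome 1.3 to 2.85% on 6.1, and control-only ones from 0.732% on 3.3 to 1.82% on 7.2. Chromosome 6.1 also had the largest share of always-listed transcripts that were lower without overlap, 11.6%, and chromosome 3.1 of those that were higher, 9.03%. The 4 homologue numbers had median log2 changes of 0.01 to 0.03. Between chromosome numbers, the median log2 change was lowest on chromosome 6, at -0.16 over 4588 members, and -0.01 to 0.11 on the other 7. It was below 0 on each homologue of chromosome 6, at -0.19, -0.11, -0.14 and -0.21 on 6.1 to 6.4. Among transcripts above 0 in all 6 libraries that was not so, with medians of 0.08, -0.05, -0.04 and -0.16 on 6.1 to 6.4. Over the always-listed transcripts of chromosome 6 the median was -0.05, beside -0.04 on chromosome 8 and -0.01 over all always-listed members. Relative to all members of the library, the mean log2(FPKM + 0.1) of chromosome 6 was -0.15, -0.07 and -0.19 in low Se and -0.07, 0.08 and -0.07 in control. The groups met at low Se 2 and control 1, and without control 2 the chromosome's median, set against that of all members, was -0.07, against -0.17 with all libraries. That value was below 0 in each of the 13 other settings that could move it, and on 6.3 it came to 0.0037 at a mean of at least 2 FPKM. Copies of a locus on homologous chromosomes can share reads, so the 4 homologues are not independent.

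Scaffolds held 2141 members, of which 37.3% were above 0 in all 6 libraries. Of those 798, 2.51% were higher and 4.89% lower in low Se without overlap, both below the 5.93% and 5.97% of all always-listed members. Scaffolds held 2 of the 7 transcripts that fell and none of the 6 that rose, beside 5.02% of all members. These calls are too few to compare with that share.

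The members with a host gene fell on 10791 genes, of which 620 had at least 3 members. In 6 of these, chosen after their values were seen, at least 3 members had groups that did not overlap in one direction (4 genes higher and 2 lower). Of single members, 4.92% were higher and 4.41% lower without overlap, which is not the share to be met by genes needing 3 such members. In each of the 6 every measured member lay on the same side. Members that met the rule are part of this count, from 3 of 7 in MS.gene06103 to all 4 in MS.gene80424. It was thus partly fixed by the choice of genes. Of 2315 host genes with at least 2 members, 34 had at least 2 higher and 25 at least 2 lower without overlap. Among the same 2315, 15 had members without overlap in both directions. None of the non-overlapping transcripts of the 6 genes passed the test. Members of a host can be pieces of 1 RNA, and their values are then not independent.

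On 4 of the 6 genes the members were higher in low Se. MS.gene88410 on chromosome 8.3 had 5 of 5 members higher. Its antisense MSTRG.152445.1 (57036924 to 57132682) stood at 2.32, 21.0 and 12.6 FPKM in low Se leaves, 1.70, 4.56 and 1.46 at the higher dose and 0 in each control library (limma adjusted p = 0.054 for low Se against control). On the sense side, MSTRG.152446.1 starts at the same base on the other strand and had 1.83, 1.49 and 0.332 FPKM at the higher dose, and a further form, MSTRG.152446.2, had 0.845, 11.9 and 2.99 against 0 in each control library. Low Se 1 was the lowest low Se library for all 3. The library protocol marked the second strand with dUTP, but how strand entered the counting is not stated. Whether reads of the opposed transcripts were kept apart is therefore unknown.

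MS.gene06103 on chromosome 4.2 had 7 of 7 members higher. The 3-exon intronic MSTRG.72101.3 (4096307 to 4097448) had 6.48, 4.81 and 6.60 FPKM in low Se leaves, 5.29, 3.60 and 1.93 at the higher dose and 0 in each control library (limma adjusted p = 0.054). MS.gene80424 on chromosome 6.3 had 4 of 4 members higher, all of 2 exons, with MSTRG.114408.1 the most abundant at 15.5, 11.8 and 7.81 FPKM against 1.14, 0.515 and 1.35. Its antisense partner MSTRG.114407.1 had 4.36, 3.12 and 1.12 against 0, 0 and 0.772. High Se was also above control for both, at 7.62, 16.3 and 14.2 and at 3.02, 5.10 and 2.12. MS.gene013959 on chromosome 7.2 had 6 of 6 members higher at lower levels, as in MSTRG.125245.5 with 1.65, 1.34 and 1.99 FPKM against 0.319, 0.458 and 0.407. High Se, at 0.113, 0.0532 and 0.163, lay below control for this one.

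On the remaining 2 genes the members were lower in low Se. MS.gene018887 on scaffold 6950 had 5 of 5 members lower, and 4 intronic transcripts in a row between 23433 and 26226 did not overlap. MSTRG.5463.1 had 0 in each low Se library and 9.55, 11.5 and 5.02 FPKM in control, and MSTRG.5462.1 had 0, 0 and 0.229 against 6.67, 3.82 and 5.43. In high Se the 4 were at 2.13 to 4.47 in high Se 1, lower in high Se 2 and at 0 in high Se 3. MS.gene054108 on chromosome 1.3 also had 5 of 5 lower. Its intronic MSTRG.17703.1 (14342168 to 14343236) had 2.03, 0.0996 and 0.125 FPKM in low Se leaves and 8.69, 9.05 and 2.61 in control. The junction-sharing MSTRG.17701.2 had 0.715, 0 and 0 against 7.97, 5.71 and 1.32. Control 3 was the lowest control library for all 4 of its non-overlapping members, and high Se lay above low Se in each.

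**Figure D5:**
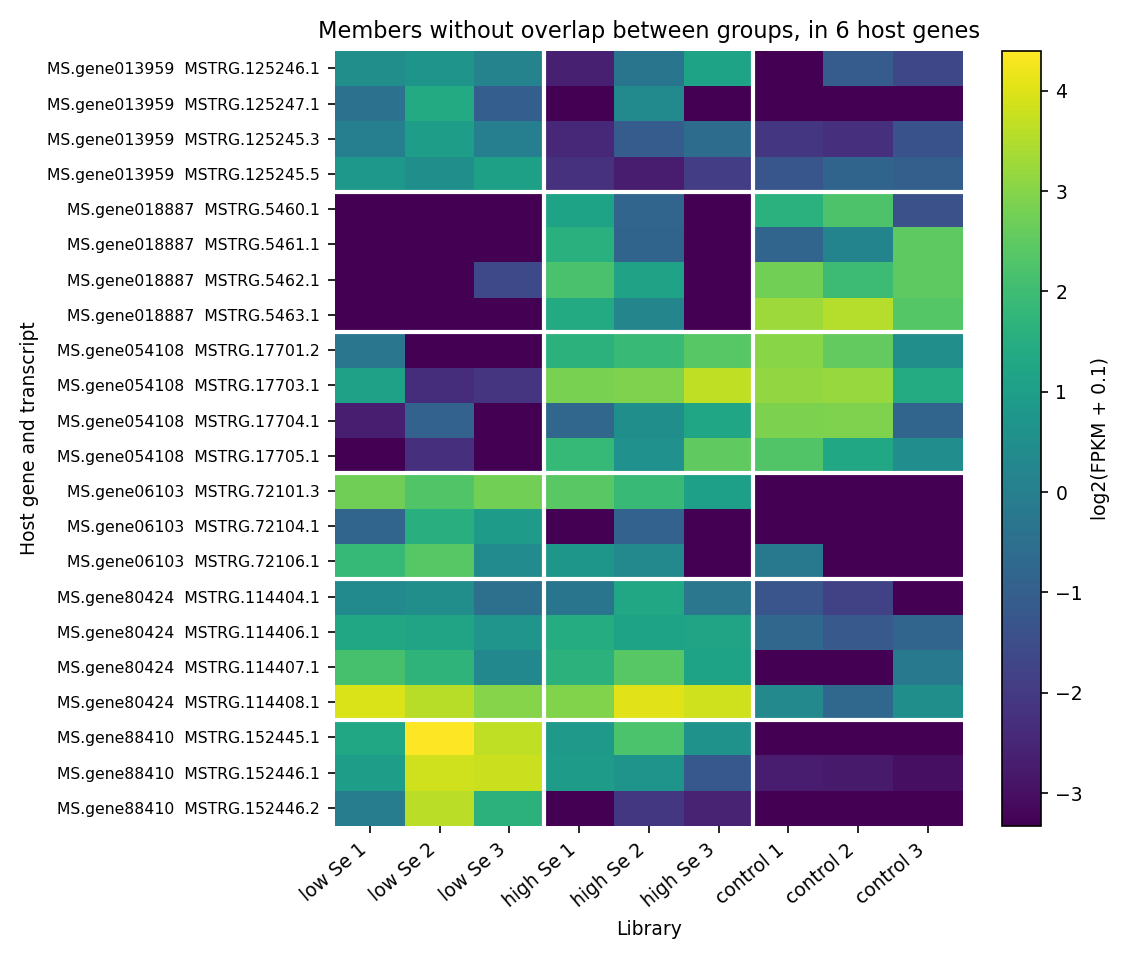
Level of the members without overlap in the 6 host genes, as log2(FPKM + 0.1) by colour, in the low Se, high Se and control libraries (columns); each row is 1 transcript and each cell 1 library. The 4 genes with higher values in low Se and the 2 with lower ones (MS.gene018887 and MS.gene054108) can be followed across their transcripts, and the darkest cells are listed at 0.

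Of 1268 loci with at least 2 members, 20 had at least 2 forms higher and 17 at least 2 forms lower without overlap. None had a low-Se-only and a control-only form, and 5 had forms without overlap in opposite directions. Of single members, 4.92% were higher and 4.41% lower without overlap, which is not the share to be met by loci needing 2 such forms. At MSTRG.113764, antisense to MS.gene074567 on chromosome 6.3, form MSTRG.113764.1 had 389, 398 and 361 FPKM in low Se leaves and 895, 662 and 474 in control. Form MSTRG.113764.3, which spans 14083504 to 14087539, had 66.9, 17.7 and 70.4 against 9.28, 5.92 and 16.6. Neither passed, with unadjusted limma p of 0.0914 and 0.00738, and both were singled out after their values were seen. The groups overlapped for the remaining form, MSTRG.113764.2, with 266, 502 and 424 FPKM in low Se and 2317, 249 and 299 in control. How reads were divided between the forms is not stated.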

How the data were processed

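Bowtie2, HISAT2, edgeR and StringTie are named, without version or role, in the submitters' processing notes. Which genome and annotation were used is not given in the sources used here, and coordinates are those of the deposited table. The authors deposited FPKM, with 0.0001 in place of 0, and per-base coverage, a signal that still holds depth, per the file headers. Deposited coding-potential scores (CPC, CNCI) were not tested. Per the labels' protocols, ribosomal RNA was depleted and dUTP marked the second strand.

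log2(FPKM + 0.1) of all 9 libraries was fitted in limma 3.58.1 (R 4.3.3) with a variance trend, for low Se minus control, over the 42661 members. A Benjamini-Hochberg adjusted p below 0.05 was a call. The table holds no counts, so no count test was run. Estimated reads are coverage times length over 141 bases, the most frequent product. Values for single libraries were compared by exact permutation. The fit was tested on simulated data drawn from normal distributions, without the ties at 0 that the real values hold. That test therefore does not cover calls in which a whole group is at 0. Other steps ran in Python 3.11.15 with matplotlib 3.10.9, pandas 2.3.3, SciPy 1.17.1 and NumPy 2.4.6.

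Transcripts were named by rule: up to 10 calls in each direction with the largest change, no overlap and a higher group averaging at least 1 FPKM; the 5 most abundant; 5 each way by highest minimum among switches and by widest gap among transcripts always above 0; the smallest p per class and direction; and the longest and most-exon ones. Members, lists and tests were chosen with earlier results of these data known. Alternatives covered pseudocount, filter, scaling, variance model, samples, weights, block and each library left out. No sequences of the transcripts were used here.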

Additional observations from a re-analysis of the deposited data

How the results depend on the processing

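The number of calls, 13, became 29 with a pseudocount of 1, 73 without a filter on the mean, 6 with a mean of at least 2 FPKM, 20 after quantile normalization, 1 without the variance trend, 23 in a fit of the 6 libraries alone, 3 with weights for libraries and 60 at an adjusted p below 0.10, and it was 3 to 30 with 1 library left out. Rises made up 46.2% of the 13, 58.6% with a pseudocount of 1, 60.9% with the 6 libraries alone, 60.0% after quantile normalization and 20.0% (without low Se 1) to 80.0% (without control 2) with 1 library left out. All 13 were among the 73 and the 20, 8 among the 29, 6 among the 23, and MSTRG.515.1 was the call that passed without the variance trend. With the replicate number as a block the count was 25, the 13 included, and 1 in the 6 libraries alone with the block, a setting added after seeing the data. Samples with the same number did not deviate together (r of -0.029, 0.0032 and -0.0089 for numbers 1, 2 and 3 in low Se and control), no low Se library correlated best with the control of its own number, and the numbers were not taken to pair the samples. The cause of these shifts was not tested.

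With 1 library left out, low-Se-only transcripts numbered 975 to 1626 and control-only ones 867 to 1357, always-listed transcripts higher without overlap 834 to 1219 and lower 918 to 1299, since fewer libraries then set the condition. At a mean of at least 2 FPKM the last 2 were 307 and 335, of fewer transcripts tested. The difference in members above 0 ran from -677 to 1784. The low Se minus control difference in FPKM share ran from -0.475 to 0.230 percentage points for intronic, -0.197 to -0.0451 for junction-sharing, 1.51 to 7.25 for sense-overlapping, -8.11 to -3.29 for intergenic and -1.84 to 3.38 for antisense transcripts. Without the 10 most abundant members, it turned to 0.687 for intronic, 0.0530 for junction-sharing and -0.0567 for antisense transcripts. Of the most abundant, MSTRG.91972.1 changed sign to 0.0042 after median-of-ratios rescaling and 0.081 with weights, and ran from -0.15 to 0.17 with 1 library left out. MSTRG.105411.1 changed to -0.55 after quantile normalization and MSTRG.10241.1 ran from -0.68 to 0.081 with 1 library left out. Depth limits single values: the median member above 0 had 10.3 to 15.7 estimated reads per low Se library and 8.97 to 17.1 per control library.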
